A study of Rattus norvegicus with 6 samples.

Results

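Cadherins, protocadherins and catenins were described here in cultured rat cells labelled as myocardial cells of the type NRVM, which commonly stands for neonatal rat ventricular myocytes; the growth protocol names embryonic tissue as their origin. Members were all rows of the gene count files whose symbol is Cdh followed by a number, begins with Pcdh, or begins with Ctnna, Ctnnb or Ctnnd. The rule found 63 of 18237 rows: 13 cadherins, 41 protocadherins and 9 genes named catenin. The cells had been given an siRNA against the metallothionein gene Mt2 (siMt2, n = 3 libraries) or a control siRNA (siNT, n = 3 libraries), and both groups were kept in DMEM with fetal bovine serum and antibiotics. Dexamethasone, isobutylmethylxanthine and insulin appear in protocol text common to both groups, but their use on these cells is not stated. Whether replicates came from separate cultures is not stated either, so the p-values refer to the spread from library to library, which may be technical.

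Cadherins are calcium-dependent adhesion proteins that hold neighbouring cells together through their extracellular repeats. In classical cadherins of types I and II the cytoplasmic tail binds beta-catenin and the delta catenins, and alpha-catenin joins this complex to actin. Beta-catenin outside the junction is normally marked for degradation by the destruction complex, and when it escapes it enters the nucleus and acts with TCF and LEF factors. Protocadherins are a larger relative group without the catenin-binding tail; the alpha, beta and gamma protocadherin genes lie in a row of clusters and are best known from neurons. In heart muscle the adherens junctions of the intercalated disc are built on N-cadherin, the product of Cdh2, and M-cadherin, the product of Cdh15, is known from skeletal myoblasts.

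Library totals lay between 2859759 and 6817777 counts, the lowest in siMt2 replicate 3, and 3 counts corresponded to between 0.440 and 1.05 CPM (counts per library scaled to the same total). The targeted transcript was not measurably lower: Mt2a, the rat Mt2 gene, had 70.7, 87.3 and 142 CPM in the libraries labelled siMt2, against 90.7, 170 and 93.3 CPM in the siNT libraries (edgeR adjusted p = 0.631). Groups are therefore named by their labels. The test covered 11726 genes, and 50.9% of them passed the threshold of 0.05 on the adjusted p, 25.8% as higher in the libraries labelled siMt2 and 25.1% as lower, and the median log2 fold change over all genes tested was 4.90e-04. The ranges of the groups did not overlap in 57.6% of tested genes. Most cardiomyocyte markers went against the label: of 12 listed markers with a row, 10 had fewer than 60 counts over all 6 libraries, among them Myh6 with 9, Actc1 with 4, Tnni3 with 3 and Ryr2 with 24 of 30244268 counts. The other 2 were detected: Tnnt2, the cardiac troponin T gene, rose to 54.5 ± 5.19 CPM in the libraries labelled siMt2, against 27.2 ± 1.38 CPM in the siNT libraries (SD, n = 3 each; 2.01 times the siNT level, edgeR adjusted p = 1.81e-07), and Gata4, which encodes a cardiac transcription factor, had 312 counts and did not pass (adjusted p = 0.563).

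Of the 63 members, 28 passed the filter on low counts and were tested, and 24 of these met the filter's CPM minimum in all 6 libraries. The 4 that did not (Pcdhb2, Pcdhb21, Pcdhga1 and Pcdhga7) gave 0 calls. In edgeR's quasi-likelihood test 16 members passed in the libraries labelled siMt2, 5 of them higher and 11 lower, which is 57.1% of those tested, beside 50.9% of all genes. Higher members made up 17.9% of those tested, beside 25.8% of all genes, and lower members 39.3%, beside 25.1%. The median log2 fold change of the tested members was -0.40. The groups did not overlap for 6 members in which siMt2 was above and 13 in which it was below, beside 28.9% and 28.7% of all genes. Of the 35 members not tested, 20 had between 10 and 59 counts over all libraries and 15 had fewer than 10.

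**Figure D1:**
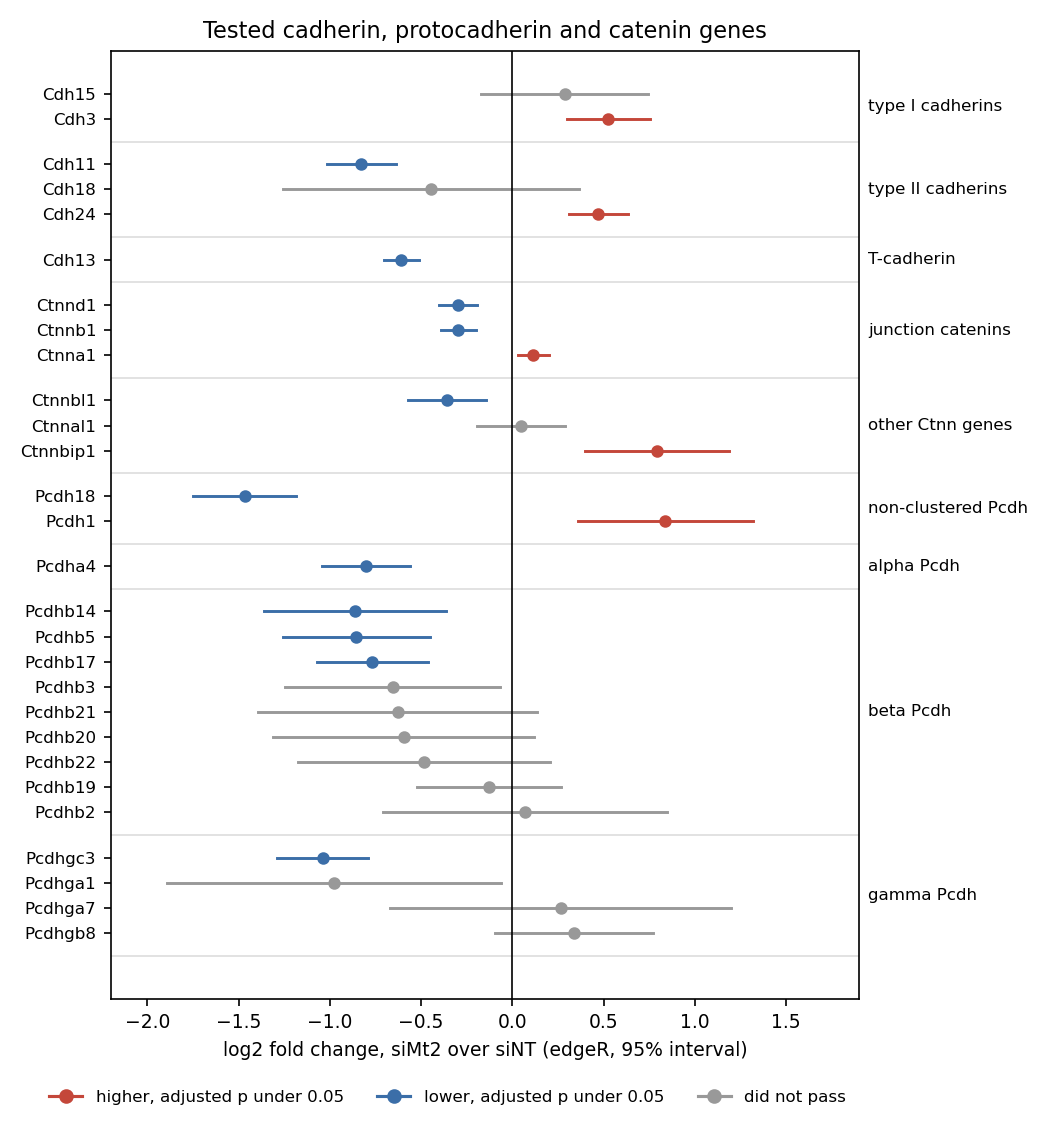
Log2 fold change of each tested member, siMt2 over siNT, from the edgeR fit, with its 95% interval; genes are grouped by role and coloured by whether they passed an adjusted p of 0.05. Pcdh18 lay farthest to the left at -1.47, and the 5 members to the right that passed lay between 0.11 and 0.84.

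Reads on cadherin genes came almost wholly from 5 of the 13 rows: Cdh13, Cdh15, Cdh24, Cdh11 and Cdh3 held between 98.9% and 99.5% of them in every library. Cdh2, the usual cadherin gene of heart muscle, was not among them. These shares count reads and are not corrected for transcript length, so they are not shares of molecules. Cdh13 took the most reads, with 47.1% ± 2.74 of the cadherin reads in the libraries labelled siMt2 and 59.5% ± 0.761 in the siNT libraries (SD, n = 3 each).

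Cdh13 encodes T-cadherin, an unusual cadherin that is held in the membrane by a lipid anchor, has no cytoplasmic tail and therefore binds no catenin. It stood at 257, 254 and 259 CPM in the libraries labelled siMt2, against 402, 384 and 386 CPM in the siNT libraries. Every library labelled siMt2 lay well below every siNT library, and the spread within each group was small. Cdh13 fell to 0.656 times the siNT level (log2 fold change -0.61 with an SE of 0.05, 95% interval -0.70 to -0.51; edgeR's adjusted p was 8.95e-10). The exact two-sided permutation test over 20 assignments gave p = 0.1, the smallest that 3 against 3 libraries allow. In a bulk library a lower level from fewer cells that express a gene and from less RNA per cell cannot be told apart.

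**Figure D2:**
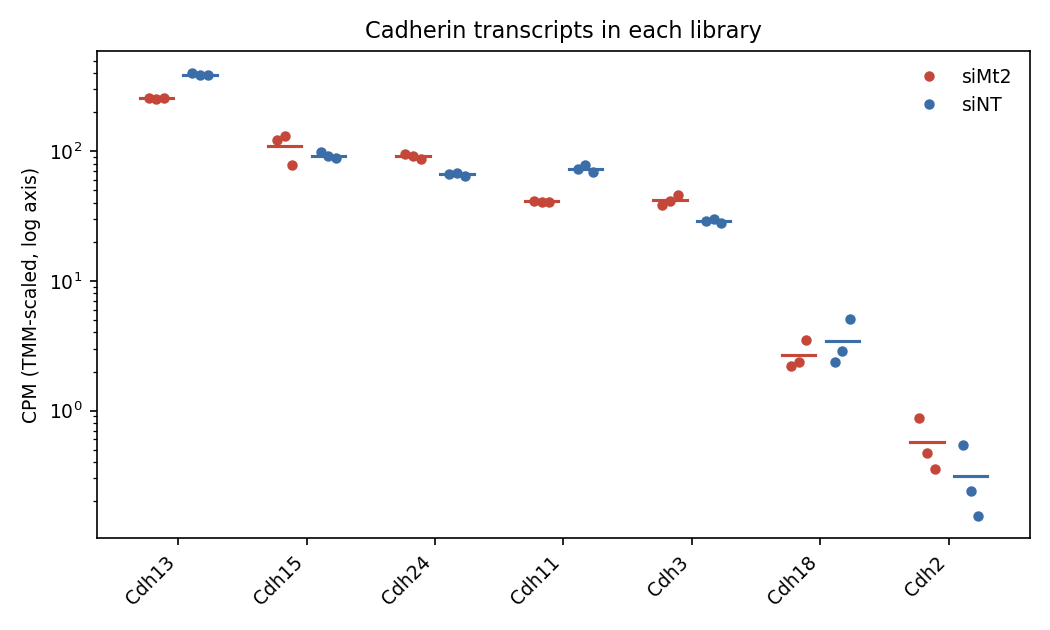
TMM-scaled CPM of 7 cadherin genes on a log axis; each point is a library and each line a group mean, siMt2 left of siNT. Cdh13 and Cdh11 lie lower in siMt2, Cdh24 and Cdh3 higher, Cdh15 and Cdh18 overlap, and Cdh2 stays under 1 CPM in every library.

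The type I cadherins, the classical group that includes E- and N-cadherin, were represented by Cdh15 and Cdh3. Cdh15 had 121, 131 and 78.9 CPM in the libraries labelled siMt2, against 97.9, 91.8 and 88.0 CPM in the siNT libraries. Replicates 1 and 2 of siMt2 were above every siNT library and replicate 3 was below all of them, so the groups overlapped. Its log2 fold change of 0.29 (SE 0.18, 95% interval -0.17 to 0.74) did not pass (edgeR adjusted p = 0.252). Without siMt2 replicate 3 it was 0.45 and passed (adjusted p = 5.96e-07). The coefficient of variation of Cdh15 was 25.1% in the libraries labelled siMt2 and 5.41% in the siNT libraries, while counting error of its smallest count, 224, was 6.68%. Among other skeletal myoblast genes, Des and Myog also had their lowest siMt2 values in replicate 3, at 21.8 and 1.41 CPM, whereas Myod1 did not. The Myog value rests on 4 counts. Genes of other lists varied there too: among siMt2 libraries Jup (71.1 CPM) and Furin (64.4 CPM) were lowest in replicate 3, and Vcl (616 CPM) was highest. Myod1, which encodes the myogenic regulator MyoD, stood at 23.1, 22.2 and 23.9 CPM in the libraries labelled siMt2 and at 16.6, 16.97 and 16.6 CPM in the siNT libraries.

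Cdh3 encodes P-cadherin, named for placenta and known from basal epithelium. It stood at 38.4, 41.6 and 45.8 CPM in the libraries labelled siMt2, against 28.7, 29.9 and 27.9 CPM in the siNT libraries. All values of siMt2 were above all of siNT, and the gene rose to 1.44 times the siNT level (log2 fold change 0.53, SE 0.11, edgeR adjusted p = 4.45e-04). Of 7 epithelial and epicardial markers with a row 4 were tested, of which 3 rose, Cdh3 included, and 1 fell, beside 25.8% and 25.1% of all genes. Krt8, a keratin gene (log2 fold change 0.86, SE 0.12), and the mesothelin gene Msln (0.91, SE 0.11) rose, and Tbx18, which encodes an epicardial transcription factor, fell (-0.31, SE 0.07). Krt18, which encodes the usual partner of the Krt8 product, had 3 counts in all 6 libraries, Upk3b and Wt1 had 12 each, and Cdh1 and Epcam were not analysed here. The part of epithelial cells in the Cdh3 result was not tested.

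Cdh2, the N-cadherin gene, had 6, 2 and 1 counts in the libraries labelled siMt2 and 3, 1 and 1 counts in the siNT libraries, 14 in all. These few counts are close to the detection limit in both groups, so no comparison was made. Cdh4, which encodes retinal cadherin, had 3 counts in all, every one in siNT replicate 3.

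Of 3 tested type II cadherins, close relatives of that group, 1 rose and 1 fell, beside 25.8% and 25.1% of all genes. Cdh24 stood at 94.7, 92.5 and 86.6 CPM in the libraries labelled siMt2, against 67.2, 67.6 and 63.9 CPM in the siNT libraries. It was higher in every library labelled siMt2 and reached 1.39 times the siNT level (log2 fold change 0.47, SE 0.08, edgeR adjusted p = 3.19e-05). Cdh11 encodes OB-cadherin, known from osteoblasts and other mesenchymal cells, and had 41.5, 40.7 and 40.8 CPM in the libraries labelled siMt2, against 72.6, 77.9 and 68.7 CPM in the siNT libraries. It fell to 0.564 times the siNT level without overlap (log2 fold change -0.83, SE 0.09, adjusted p = 2.55e-07). Most other mesenchymal markers went the other way. Of 11 listed fibroblast genes tested, 8 rose and Cdh11 was the 1 that fell, beside 25.8% and 25.1% of all genes. Among the 8, Dcn and Lum had 50 and 51 counts in all. Both met the filter's CPM minimum only in the libraries labelled siMt2, so they entered the test through the group where they were high. Thy1, which also rose, averaged 461 ± 29.5 CPM in siMt2 and 264 ± 16.1 CPM in siNT (SD, n = 3 each). The summed level of the 13 listed fibroblast genes with a row ran from 10966 to 14878 CPM in siMt2 and from 8415 to 8555 CPM in siNT, and its part in the cadherin values was not tested.

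The third type II cadherin tested, Cdh18, which is known from the nervous system, lay between 2.19 and 3.52 CPM in the libraries labelled siMt2 and between 2.35 and 5.06 CPM in the siNT libraries, and did not pass (edgeR adjusted p = 0.355). Cdh6 and Cdh10 had 4 and 2 counts in all. Among the remaining cadherins, the intestinal Cdh17 had 14 counts, Cdh23, a component of hair-cell tip links, had 10, and the kidney cadherin gene Cdh16 had 2.

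The make-up of the cadherin reads therefore differed between the groups. Cdh24 took 16.7% ± 0.302 of them in the libraries labelled siMt2 and 10.1% ± 0.203 in the siNT libraries. Cdh11 took 7.53% ± 0.362 in siMt2 and 11.1% ± 0.663 in siNT, and Cdh3 took 7.72% ± 1.04 in siMt2 and 4.39% ± 0.152 in siNT (SD, n = 3 each). Shares within a library do not depend on how libraries are scaled to each other, and for these 3 genes and Cdh13 the groups did not overlap. Nor did they for the share of Cdh15, which was 21.8%, 23.2% and 15.3% in the libraries labelled siMt2 and 14.5%, 14.0% and 13.7% in the siNT libraries, although its CPM overlapped. Shares within a library are tied to each other, so a smaller Cdh13 share leaves more for the other genes. For Cdh15, siMt2 replicate 3 was lowest of all libraries in CPM (78.9). The 95% binomial interval of its share, 13.5% to 17.3%, overlapped that of siNT replicate 1, 13.4% to 15.7%. All 13 cadherin rows together summed to 545 ± 26.2 CPM in siMt2 and 656 ± 16.1 CPM in siNT. The 9 rows whose products carry a catenin-binding tail summed to 300, 308 and 256 CPM in siMt2 and to 270, 270 and 254 CPM in siNT. These sums overlapped, whereas Cdh13, the cadherin without a tail, did not overlap. No test was made on these sums, which were formed after the values were seen.

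**Figure D3:**
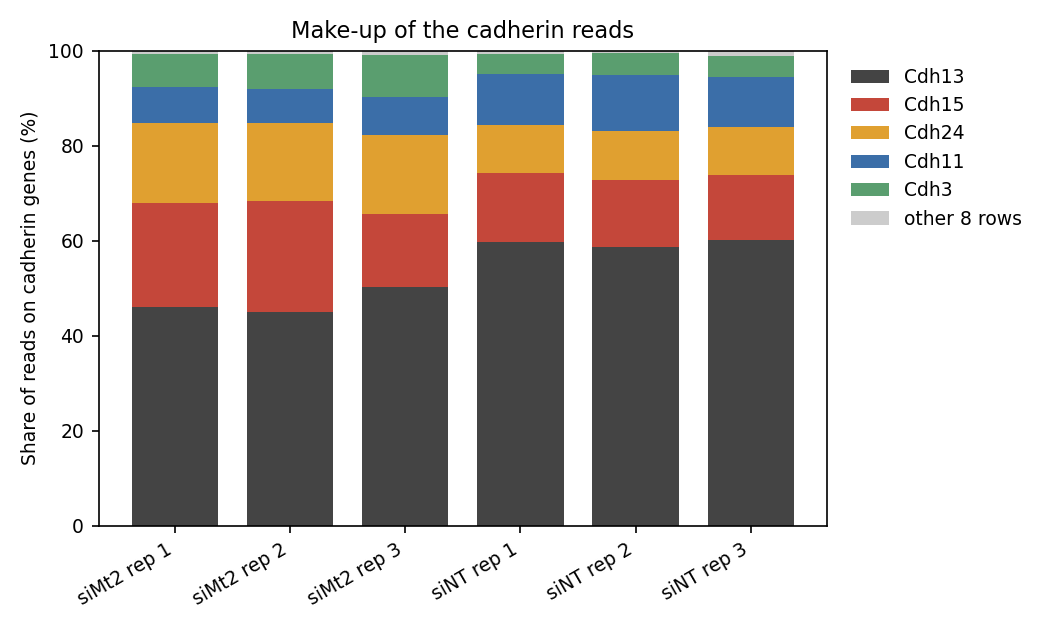
Share of the reads on cadherin genes taken by each of the 5 most read cadherins and by the other 8 rows together, as stacked bars for each library, siMt2 left of siNT. The Cdh13 part is smaller in siMt2 (45.1% to 50.2%) than in siNT (58.7% to 60.2%), and the Cdh24 part is larger.

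Catenins of the junction were abundant and changed by little. Ctnnb1, the beta-catenin gene, stood at 320, 310 and 337 CPM in the libraries labelled siMt2, against 394, 399 and 393 CPM in the siNT libraries. Ctnnd1, whose product steadies cadherins at the membrane, stood at 260, 240 and 261 CPM in siMt2, against 307, 313 and 315 CPM in siNT. Both lay lower in every library labelled siMt2, by nearly the same ratio. Ctnnb1 fell to 0.815 times the siNT level (log2 fold change -0.30, SE 0.05, edgeR adjusted p = 1.89e-05) and Ctnnd1 to 0.813 times (-0.30, SE 0.05, adjusted p = 3.83e-05). A RefSeq pseudogene entry, Ctnnb1-ps1, shares its name with Ctnnb1, and how reads shared by such copies were counted is not stated in the sources used here.

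Ctnna1, the alpha-catenin gene whose product reaches from the complex to actin, stood at 780, 836 and 831 CPM in the libraries labelled siMt2, against 772, 747 and 739 CPM in the siNT libraries. The lowest siMt2 value was only just above the highest siNT value. The log2 fold change of 0.11 (SE 0.04, 95% interval 0.03 to 0.20) passed with an edgeR adjusted p of 0.0242. The call was lost without siMt2 replicate 2 (adjusted p = 0.0872), siNT replicate 2 (0.0856) or siNT replicate 3 (0.113), and in DESeq2 (0.0654). Within a library, reads of Ctnna1 divided by reads of Ctnnb1 gave 2.44, 2.69 and 2.46 in siMt2 and 1.96, 1.87 and 1.88 in siNT, a ratio that does not depend on scaling. The ratio of Ctnnb1 to Ctnnd1 reads overlapped, at 1.23, 1.29 and 1.29 in siMt2 and 1.28, 1.27 and 1.25 in siNT. Both ratios were chosen after the values were seen.

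Catenins of specialised tissues were barely detected. Ctnna3, which encodes the alpha-T-catenin of heart muscle and testis, had 1 count in each library labelled siMt2 and 2, 1 and 0 counts in the siNT libraries. The neural genes Ctnna2 and Ctnnd2 had 10 and 3 counts over all libraries.

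Of 3 genes that carry a catenin name and act elsewhere, 1 rose and 1 fell, beside 25.8% and 25.1% of all genes. Ctnnbip1, which encodes a small protein that keeps beta-catenin from binding TCF factors, stood at 14.5, 18.7 and 20.1 CPM in the libraries labelled siMt2, against 10.7, 8.13 and 10.9 CPM in the siNT libraries. It was higher in every library labelled siMt2 (log2 fold change 0.79, SE 0.19, edgeR adjusted p = 0.00159). Ctnnbl1, whose product is found with the splicing machinery, stood at 36.4, 39.0 and 32.4 CPM in siMt2, against 46.4, 46.4 and 46.3 CPM in siNT, and fell (-0.36, SE 0.10, adjusted p = 0.00668). Ctnnal1, the alpha-catulin gene, stood at 38.2, 33.1 and 33.8 CPM in siMt2, against 29.98, 35.1 and 37.6 CPM in siNT, with overlapping groups, and its difference lay within the replicate spread (0.05, 95% interval -0.19 to 0.29, adjusted p = 0.760).

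Protocadherins that passed the test were mostly lower, with Pcdh18 the furthest from 0, but most beta and gamma genes tested did not pass. Outside the clusters 1 of 2 tested rose and 1 fell. In the clusters 3 of 9 beta, 1 of 4 gamma and 1 of 1 alpha genes tested fell and 0 rose. Over all genes 25.8% rose and 25.1% fell. Pcdh18, a protocadherin gene outside the clusters, stood at 19.6, 17.3 and 13.03 CPM in the libraries labelled siMt2, against 46.8, 54.0 and 43.4 CPM in the siNT libraries. The groups lay far apart, and Pcdh18 fell to 0.362 times the siNT level (log2 fold change -1.47 with an SE of 0.14, 95% interval -1.75 to -1.18; edgeR's adjusted p was 1.95e-08). Pcdh1, another gene outside the clusters and known from airway epithelium, went the other way: it had 12.7, 11.8 and 10.2 CPM in siMt2, against 4.70, 6.93 and 7.97 CPM in siNT (0.84, SE 0.23, adjusted p = 0.00463). The other 5 members of this kind were not tested; Pcdh19 had 32 counts in all, Pcdh15, the tip-link partner of Cdh23, had 10, Pcdh12 had 6, Pcdh9 had 4 and Pcdh20 had 2.

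The gamma cluster gave 16 rows, and its reads were carried mainly by Pcdhgc3. Pcdhgc3, a C-type gamma protocadherin, stood at 47.4, 52.7 and 32.0 CPM in the libraries labelled siMt2, against 94.8, 89.9 and 93.6 CPM in the siNT libraries. It fell to 0.487 times the siNT level (log2 fold change -1.04, SE 0.12, edgeR adjusted p = 2.22e-06), and to a log2 fold change of -0.90 without siMt2 replicate 3, the lowest library. The other 15 gamma rows together summed to 16.9, 22.2 and 27.5 CPM in siMt2 and to 19.5, 22.9 and 23.9 CPM in siNT, with means of 22.2 and 22.1 CPM. Pcdhgb8 was the best covered of these, with 10.4, 11.8 and 16.6 CPM in siMt2 and 10.1, 9.08 and 10.3 CPM in siNT. Its groups were just apart, but Pcdhgb8 (0.34, adjusted p = 0.183), Pcdhga7 (0.27, 0.648) and Pcdhga1 (-0.98, 0.0691) did not pass the test. Of the 12 gamma members not tested, Pcdhga3 had 41 counts over all libraries, Pcdhga2 32, Pcdhga12 14, Pcdhgb4 and Pcdhga11 13 each and Pcdhga8 11, and the others had under 10. Gamma transcripts share their last exons: in RefSeq's GRCr8 annotation 12 of the 14 gamma members found, Pcdhgc3 among them, end at the same base. The sources used here do not say how reads on such shared exons were counted, so levels of single gamma genes are uncertain.

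Pcdha4 was the only row of the alpha cluster. It stood at 31.1, 39.0 and 27.1 CPM in the libraries labelled siMt2, against 58.7, 54.3 and 57.6 CPM in the siNT libraries. The groups did not overlap, and the row fell to 0.574 times the siNT level (log2 fold change -0.80, SE 0.12, edgeR adjusted p = 7.64e-06). RefSeq's table gives Pcdha4 with 22 transcripts and lists 12 other Pcdha names as its synonyms, so the row may hold reads of several alpha protocadherins.

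The beta cluster gave 17 rows, of which 9 were tested, 3 fell, 0 rose and 6 did not pass; over all genes 25.1% fell and 25.8% rose. Pcdhb17 stood at 12.99, 16.3 and 14.4 CPM in the libraries labelled siMt2, against 24.2, 25.6 and 24.1 CPM in the siNT libraries (log2 fold change -0.77, SE 0.15, edgeR adjusted p = 1.94e-04). Pcdhb5 stood at 11.2, 8.99 and 9.86 CPM in siMt2, against 23.1, 16.97 and 15.2 CPM in siNT (-0.86, SE 0.19, adjusted p = 9.84e-04). Pcdhb14 stood at 7.01, 4.26 and 8.45 CPM in siMt2, against 13.01, 12.4 and 10.1 CPM in siNT (-0.86, SE 0.24, adjusted p = 0.00514). In each of these 3 genes every siMt2 value lay below every siNT value.

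Pcdhb19 was as well covered as Pcdhb14 and gave another picture, with 12.6, 11.4 and 8.80 CPM in the libraries labelled siMt2 and 11.6, 13.1 and 12.1 CPM in the siNT libraries (log2 fold change -0.13, 95% interval -0.52 to 0.27, edgeR adjusted p = 0.599). The other 5 beta genes tested averaged between 2.68 and 4.35 CPM in siMt2 and between 3.20 and 5.84 CPM in siNT, with log2 fold changes between -0.66 for Pcdhb3 (adjusted p = 0.0594) and 0.07 for Pcdhb2 (0.894). The 8 beta members not tested ran from Pcdhb12 with 59 counts over all libraries, Pcdhb10 with 46, Pcdhb9 with 41, Pcdhb7 with 38 and Pcdhb11 with 35 down to Pcdhb4 with 26, Pcdhb6 with 22 and Pcdhb8 with 13. All 17 beta rows together, tested or not, summed to 64.1, 63.4 and 68.3 CPM in siMt2 and to 112, 97.3 and 96.1 CPM in siNT, a sum that was given no test.

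Beta protocadherin genes have a single coding exon, so their levels could be set side by side per kilobase, using the annotated length of the 16 that RefSeq lists with 1 transcript (2340 to 6105 bases in GRCr8, which is not the build of the counts). Per kilobase, Pcdhb5 had 3.88 ± 0.440 CPM in the libraries labelled siMt2 and 7.13 ± 1.61 CPM in the siNT libraries. Pcdhb17 had 2.94 ± 0.336 CPM per kilobase in siMt2 and 4.96 ± 0.168 in siNT, Pcdhb19 had 3.88 ± 0.682 in siMt2 and 4.37 ± 0.287 in siNT, and Pcdhb14 had 2.34 ± 0.759 in siMt2 and 4.22 ± 0.545 in siNT (SD, n = 3 each). Pcdhb5 came first in siNT per kilobase, and Pcdhb19 and Pcdhb14 did not differ beyond their spread there. Before division by length Pcdhb17 had the higher siNT mean, 24.6 CPM against 18.4 CPM for Pcdhb5. The annotated lengths were 4965 bases for Pcdhb17 and 2583 for Pcdhb5, so the order of these 2 genes rests on the annotation. In siMt2, Pcdhb5 and Pcdhb19 stood level.

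**Figure D4:**
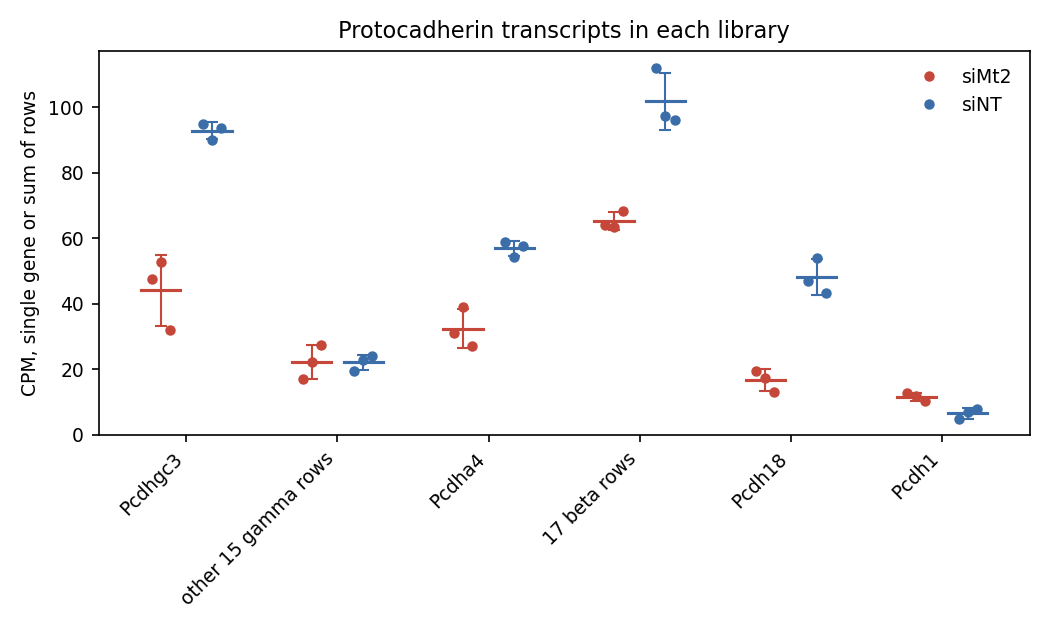
TMM-scaled CPM of 4 protocadherin genes and summed CPM of 15 gamma and 17 beta rows; points are libraries, lines are means and bars are SD (n = 3), siMt2 left of siNT. Pcdhgc3, Pcdha4, the beta sum and Pcdh18 are lower in siMt2, Pcdh1 is higher, and the other gamma rows overlap.

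Promoter sequences of the clustered genes are shown because many of them share a short element. Of the 14 clustered members tested 5 passed, all of them lower, beside 25.1% of all genes lower and 25.8% higher. RefSeq's promoter table (GRCr8, 250 bases before to 50 after the annotated start) held 48 of the 63 members. The beta genes Pcdhb11, Pcdhb17 and Pcdhb22 were not among them, so the promoter of Pcdhb17, which fell, was not read. Reading the beta promoters gave the motif GGTGGCGCT, which was then searched on both strands. It was present in 14 of 14 beta promoters, in each on the strand of the gene, and in 0.457% of the 33469 promoters of all genes. With the fifth base left free, as GGTGNCGCT, which includes every match of the first motif, it was found in 14 of 14 beta promoters, in the Pcdha4 promoter, in 1 of 13 gamma promoters (Pcdhga3), in 1 of 20 promoters of the other members and in 0.998% of all promoters. The motif was picked from these sequences and beta genes are close copies of each other, so the counts are a description. The windows below run along the gene's strand, all on the plus strand of GRCr8, with the match in capitals.
Pcdhb5, lower in siMt2, chr18:29302394-29302438: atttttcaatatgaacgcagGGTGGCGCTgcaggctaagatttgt
Pcdhb14, lower in siMt2, chr18:29431799-29431843: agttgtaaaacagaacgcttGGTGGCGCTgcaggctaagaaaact
Pcdhb19, did not pass, chr18:29478754-29478798: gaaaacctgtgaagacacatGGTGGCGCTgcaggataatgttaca
Pcdhb3, did not pass, chr18:29285594-29285638: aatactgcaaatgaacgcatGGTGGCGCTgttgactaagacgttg
Pcdhb20, did not pass, chr18:29485800-29485844: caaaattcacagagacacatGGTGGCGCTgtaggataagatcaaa
Pcdhb21, did not pass, chr18:29492139-29492183: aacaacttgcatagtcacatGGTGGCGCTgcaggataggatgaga
Pcdhb2, did not pass, chr18:29279913-29279957: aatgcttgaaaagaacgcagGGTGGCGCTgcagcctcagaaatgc
Pcdha4, lower in siMt2, chr18:28876951-28876995: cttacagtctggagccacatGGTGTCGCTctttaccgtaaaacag

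The capitals line up in all 8 windows, and in the beta windows the bases just after them are alike too. The first base of the match lay between -46 and -229 from the annotated start over the 14 beta promoters. Clustered protocadherin promoters are known from mouse and human to carry a conserved element with the core CGCT that is bound by CTCF. The letters found here contain that core, but so short a core also occurs in the Pcdhgc3 promoter printed below. Binding by CTCF was not tested. Genes that fell and genes that did not pass both carried the motif. The promoter of Pcdhb5 is given whole as an example of a member that fell and carries the match, and that of Pcdhgc3 as one that fell and holds none.
Pcdhb5, chr18:29302216-29302515, plus strand: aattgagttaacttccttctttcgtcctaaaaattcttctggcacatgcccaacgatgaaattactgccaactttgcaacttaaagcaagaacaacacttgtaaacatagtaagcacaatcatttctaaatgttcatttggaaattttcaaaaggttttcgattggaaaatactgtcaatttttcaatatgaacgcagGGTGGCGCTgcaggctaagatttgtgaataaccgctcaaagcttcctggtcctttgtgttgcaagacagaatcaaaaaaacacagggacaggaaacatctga
Pcdhgc3, chr18:29883995-29884294, plus strand: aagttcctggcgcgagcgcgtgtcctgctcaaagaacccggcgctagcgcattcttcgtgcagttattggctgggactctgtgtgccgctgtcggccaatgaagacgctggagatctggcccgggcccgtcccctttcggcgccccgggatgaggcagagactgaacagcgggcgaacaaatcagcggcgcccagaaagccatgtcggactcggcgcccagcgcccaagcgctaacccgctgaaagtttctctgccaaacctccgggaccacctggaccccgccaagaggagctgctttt

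The Pcdhb5 window holds 1 match in capitals and the Pcdhgc3 window holds 0, which says only that the whole motif is not in this window.

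Genes around the cadherin-catenin system were counted from lists of junction partners, relatives, regulators and beta-catenin partners. Among 17 tested junction partners, 7 were lower in the libraries labelled siMt2 and 2 were higher, beside 25.1% and 25.8% of all genes. Among those that fell were Lima1, whose product bridges alpha-catenin and actin (log2 fold change -0.28, SE 0.04), Wtip, which encodes a LIM-domain protein (-0.75, SE 0.12), and the scaffold gene Tjp1 (-0.21, SE 0.05), with edgeR adjusted p of at most 0.00130. Without siMt2 replicate 2 or siNT replicate 3, 0 junction partners rose. Desmosome genes were few: Dsg2 had 3 counts and Dsp 25, while Pkp1, a plakophilin gene, averaged 430 ± 10.6 CPM in siMt2 and 422 ± 12.6 CPM in siNT (SD, n = 3 each, adjusted p = 0.643).

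Among cadherin relatives outside the naming rule, 2 of 7 rose and 4 fell, beside 25.8% and 25.1% of all genes. One of the falls, the calsyntenin gene Clstn3, had 57 counts in all and an edgeR adjusted p of 0.0492. It met the filter's CPM minimum only in siNT libraries, so it entered the test through the group where it was high. Fat1, a giant cadherin gene, stood at 1244, 1215 and 1323 CPM in the libraries labelled siMt2, against 1897, 1961 and 2018 CPM in the siNT libraries. It fell with no overlap (log2 fold change -0.64, SE 0.04, edgeR adjusted p = 5.00e-11). Fjx1, whose fly counterpart modifies Fat and Dachsous, rose (1.15, SE 0.24), as did Fat4 (0.50, SE 0.17), and the calsyntenin gene Clstn1 fell (-0.17, SE 0.05). The count of rises was 1 without siMt2 replicate 1, siNT replicate 1 or siNT replicate 3. The count of falls was 2 without siMt2 replicate 2, siNT replicate 1 or siNT replicate 3.

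Of 7 tested factors that bind E-boxes of cadherin genes, 1 rose, 2 fell and 4 did not pass, beside 25.8% higher and 25.1% lower over all genes. Snai2, a repressor of E-cadherin, stood at 43.5, 41.1 and 39.1 CPM in the libraries labelled siMt2, against 19.5, 20.3 and 26.8 CPM in the siNT libraries (log2 fold change 0.89, SE 0.13, edgeR adjusted p = 7.94e-06). Zeb2 (-0.31, SE 0.07) and Tcf4, which encodes an E protein (-0.87, SE 0.14), fell, and Zeb1 did not pass (0.19, adjusted p = 0.0717). The count of rises was 4 without siMt2 replicate 3 and 2 without siNT replicate 2.

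Sheddases and other turnover genes were lower in 7 of 15 cases and higher in 1, beside 25.1% and 25.8% of all genes. Ncstn, a subunit of the gamma-secretase that cuts cadherin stubs, averaged 215 ± 8.20 CPM in the libraries labelled siMt2 and 306 ± 1.15 CPM in the siNT libraries (SD, n = 3 each; log2 fold change -0.52, SE 0.05, edgeR adjusted p = 2.74e-08). The metalloprotease genes Adam17 (-0.73, SE 0.07) and Adam15 (-1.01, SE 0.11) fell, and the phosphatase gene Ptpn1 rose (0.72, SE 0.10). Without siMt2 replicate 3, 3 of these genes rose.

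Destruction complex genes and nuclear partners of beta-catenin differed in direction, while over all genes 25.1% were lower and 25.8% higher. Of 12 destruction complex genes tested, 8 fell and 0 rose, with Ppp2r1a, a phosphatase scaffold gene, at 188, 192 and 199 CPM in the libraries labelled siMt2, against 372, 355 and 365 CPM in the siNT libraries (log2 fold change -0.92, SE 0.05, edgeR adjusted p = 4.27e-12). The casein kinase gene Csnk1d (-0.45, SE 0.05), the ubiquitin ligase gene Fbxw11 (-0.48, SE 0.06) and the scaffold gene Apc (-0.43, SE 0.06) fell as well. Without siMt2 replicate 1, 5 fell. Of 9 nuclear partners tested, 5 rose and 0 fell: Tcf7 averaged 9.50 ± 1.404 CPM in siMt2 and 3.44 ± 1.31 CPM in siNT (SD, n = 3 each; 1.48, SE 0.30, adjusted p = 3.17e-04), and Bcl9 (0.67, SE 0.10), Tcf7l2 (0.48, SE 0.12) and Lef1 (0.83, SE 0.30) rose. The count of rises was 3 without siMt2 replicate 1, siNT replicate 2 or siNT replicate 3, and 3 in DESeq2. No test compared these lists with other genes, and 50.9% of all genes passed in one direction or the other.

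**Figure D5:**
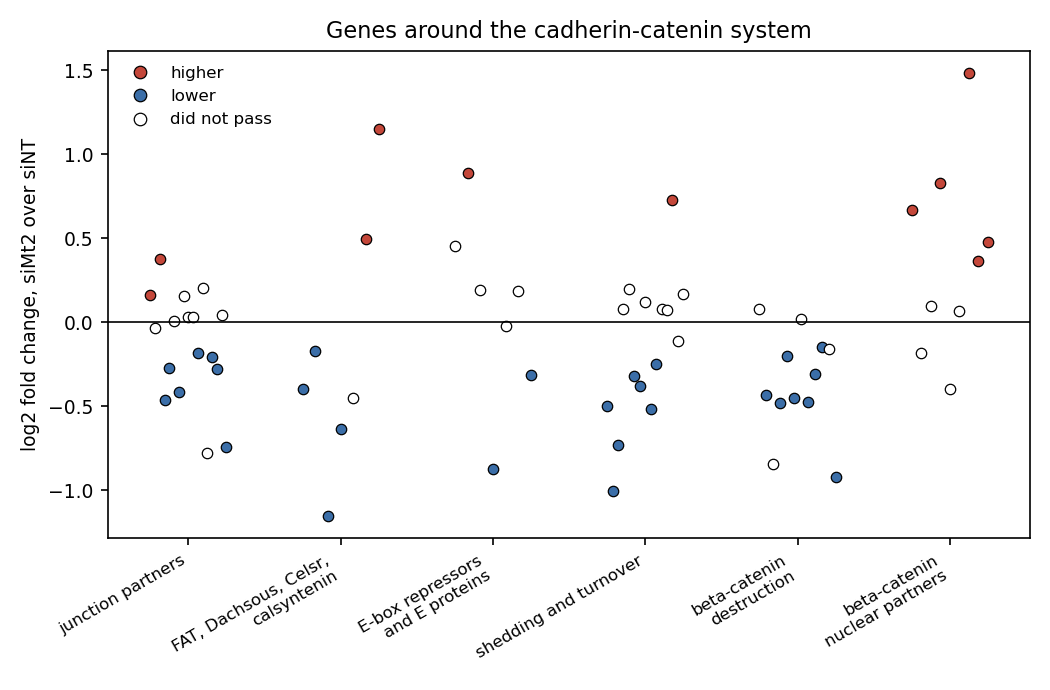
Log2 fold change of each tested gene in 6 lists around the cadherin-catenin system, siMt2 over siNT; filled points passed an edgeR adjusted p of 0.05 and open points did not. Called destruction complex genes all lie below 0 and called nuclear partners all lie above 0.

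Markers of the cell types that use these adhesion genes varied in the same libraries. Of 16 skeletal myoblast markers 9 had a row and 4 were tested: Des (log2 fold change 1.84, SE 0.22) and Myod1 (0.46, SE 0.14) rose, Myog, the gene of the differentiation factor myogenin, fell (-1.47, SE 0.37), and Cdh15 did not pass; the others had 26 counts or fewer. Their summed level ran from 131 to 187 CPM in the libraries labelled siMt2 and from 120 to 128 CPM in the siNT libraries, most of it from Cdh15 itself. Markers of smooth muscle or pericytes, 10 in all, were higher in 7 cases and lower in 1, beside 25.8% and 25.1% of all genes, and summed to 4345 to 4458 CPM in siMt2 and 2509 to 2528 CPM in siNT. Endothelial markers summed to between 33.5 and 41.0 CPM in siMt2 and between 76.5 and 85.6 CPM in siNT, mostly from Eng (-1.16, SE 0.11). Vwf had 161 counts and did not pass (-0.35, edgeR adjusted p = 0.398), while the defining genes Tek and Tie1 had 11 and 3 counts. Of 5 leukocyte markers with a row only Cd14 was tested, and it fell (-0.73, SE 0.15); Ptprc had 2 counts. Dbh (2.37, SE 0.38) and Tubb3 (1.54, SE 0.32) rose among Schwann cell and neuronal markers. Dbh, with 108 counts in all, met the filter's CPM minimum only in siMt2 libraries, so it entered the test through the group where it was high. The part of any of these cell types in the cadherin, protocadherin and catenin values was not tested.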

How the data were processed

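Per the labels' protocols, total RNA was column-purified and sequencing libraries were built with the SMARTer mRNA-Seq kit. The authors deposited raw whole-number counts per gene, 1 file per library, with no normalization. Tools listed without role or setting in the submitters' processing notes are featureCounts, HISAT2 2.2.1, DESeq2, Trimmomatic 0.40 and limma, with rn6 as the rat genome build; strand and multi-mapping rules are not given in these sources. All files hold 18237 rows in one order, 25 of them with names turned into dates; these stayed in totals. No column lacked a sample.

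R 4.3.3 and edgeR 4.0.16 were used, with filterByExpr (minimum count 10), TMM scaling and the robust quasi-likelihood test, two-sided. P-values were adjusted by Benjamini-Hochberg across the 11726 genes that passed the filter, and 0.05 was the threshold. CPM is TMM-scaled; fold changes are siMt2 over siNT, and SE was taken from the F statistic. The procedure was tested on simulated data. The median squared difference between libraries of one group was 1.58 to 1.67 times that of counting noise for 4 pairs and 2.18 and 2.29 times for the pairs with siMt2 replicate 3; no pair was alike enough to be one library deposited again.

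Members and lists were chosen with earlier results of these data known. Given per library were tested members with a mean of at least 10 CPM or an adjusted p under 0.05, and of each list up to 4 genes with the smallest adjusted p; some genes of the lists are not reported here. A planned order of cadherins per kilobase could not be made, so the permutation test took Cdh13, the cadherin with most CPM. The RefSeq table (GRCr8) matched 61 of 63 members and gave names, lengths and gene ends. Alternatives in edgeR were DESeq2's size factors, upper quartile scaling, library totals, no filter, a stricter filter (10 counts in all libraries of either group, mean CPM 1), a replicate block and leaving out single libraries; DESeq2 1.42.0 and limma-voom (limma 3.58.1) were other tests.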

Additional observations from a re-analysis of the deposited data

How the results depend on the processing

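Over 14 alternatives, 15 of the 16 called members kept direction and call, Ctnna1 being the exception given above. Members higher and lower numbered 4 to 6 and 11 to 12 with a library left out, and 5 and 13 with no filter; over all genes the counts stayed within 1.5 times the main ones. Scalings moved the median of all genes to at most 0.039 on the log2 scale. Ctnnal1, which never passed, turned to -0.034 without siMt2 replicate 1 and -0.048 without siNT replicate 1, and reached 0.126 without siNT replicate 3. With the replicate number as a block, 5 members were higher and 11 lower, as in the fit without it, and 2968 and 2929 of all genes, against 3026 and 2945. Deviations of same-numbered libraries correlated at 0.0018, -0.055 and 0.033, so the numbers are not taken as pairs. The cadherin order per kilobase of coding length was not run. The filter left 35 members with few counts untested, and depth limits what can be said of these. Without a filter, 1 nuclear partner fell and 1 junction partner rose; upper quartile scaling left 2 falling cadherin relatives and 2 rising E-box factors, and DESeq2 gave 1 rise and 2 falls among relatives and 1 rise among junction partners. Rising turnover genes numbered 2 under upper quartile scaling, library totals, the stricter filter and limma-voom. Endothelial falls numbered 2 without siMt2 replicate 3. Leaving out any library but siMt2 replicate 3 gave 0 or 1 rising junction partners. The causes were not tested.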
